A study of Mus musculus with 6 samples.

Results

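The 10 genes described here, which mark muscle satellite cells or regulate the making of muscle fibres, were followed in mouse muscle with and without Tarsl2. They were chosen by name, as all rows of the count table whose gene name is Pax7, Cdh15, Myf5, Myod1, Myog, Myf6, Mef2c, Mymk, Mymx or Mstn, which gave 10 genes of 53084. RNA was sequenced from the muscle of 3 Tarsl2+/+ mice (583, 584 and 595) and 3 Tarsl2-/- mice (588, 589 and 591), with 1 library per mouse. All 6 were male mice, 6 weeks old, on standard chow, of a strain that the sample records give as C57BL/6 and the study's methods as C57BL/6J. The Tarsl2-/- mice are homozygous for a germline deletion around exon 3 of Tarsl2, the gene of a protein like threonyl-tRNA synthetase, made with CRISPR/Cas9, so that every tissue lacks the intact gene, and the Tarsl2+/+ mice carry no deletion. Which muscle was taken, and whether the mice of the genotypes were littermates, is not given in the sources used here. The comparison asks whether the regulators of muscle formation differ in a mouse that the study examined for muscle size and growth.

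Satellite cells are the resident stem cells of skeletal muscle and lie between the fibre and its basement membrane. Pax7 keeps them in place as a stem cell pool. When they are activated, the myogenic factors Myf5 and Myod1 commit the cells to muscle, Myog and the Mef2 proteins start the genes of the differentiated fibre, and the membrane proteins Mymk and Mymx fuse the cells with one another or with a fibre. Myf6 is the myogenic factor that stays high in mature fibres, and myostatin (Mstn) is a secreted inhibitor of muscle growth that the fibres themselves make.

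The libraries held between 16176591 and 20123767 counts. Tarsl2 itself was read 456, 605 and 464 times in Tarsl2+/+ muscle, but 40, 30 and 37 times in Tarsl2-/- muscle (mice 588, 589 and 591). Its log2 fold change (Tarsl2-/- over Tarsl2+/+) was -3.81 with a standard error of 0.156 (adjusted p = 6.46e-07, edgeR's quasi-likelihood test, Benjamini-Hochberg adjusted), so the libraries go with their labels. Genes of skeletal muscle identity summed to between 30861 and 39135 CPM in every library. CPM here are the counts relative to each library total as scaled by TMM (a trimmed mean of log ratios). The 5 heart genes looked at summed to at most 1.05 CPM and the 5 retinal genes to at most 0.262 CPM. Nppa, Nkx2-5, Pde6b and Crx had no count in any library. In whole muscle, fewer cells of a type and less RNA per cell cannot be told apart.

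None of the 10 regulators passed an adjusted p of 0.05 in edgeR's quasi-likelihood test, in which 2.27% of the 15075 genes tested passed. All 10 had enough counts to be tested. At an unadjusted p under 0.05 there were 3, Mef2c, Myf6 and Mstn, or 30% of the 10, where 19.8% of all genes tested reached that level. DESeq2, which called 670 of 15271 genes, called Mef2c, and limma-voom, which called 318 of 15075, called none of the 10. Mef2c was the one regulator whose genotypes did not overlap, or 10% of the 10, against 24.6% of all genes tested. As many regulators had a higher mean in Tarsl2-/- muscle (5) as a lower one (5), and their median log2 fold change was 0.003, as close to 0 as the median of 0.0027 over all genes tested.

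**Figure D1:**
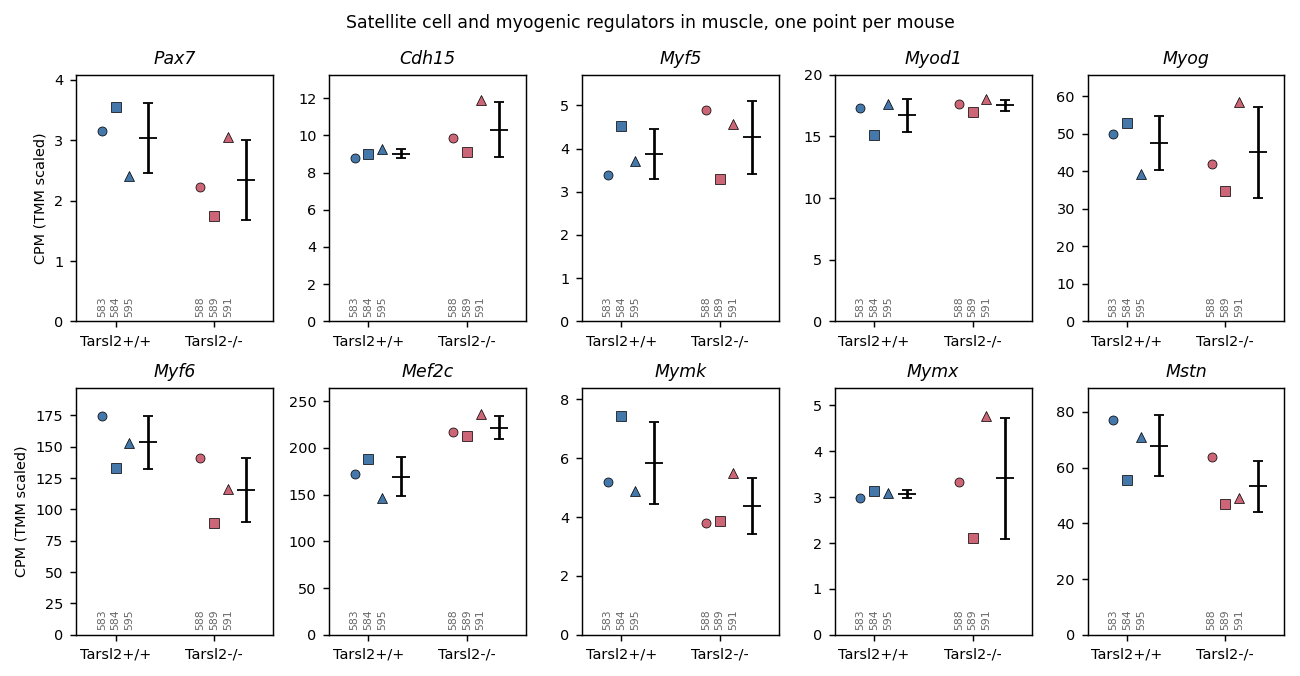
Normalised level (CPM after TMM scaling, from 0 on every vertical axis) of each regulator in each mouse. Points are mice, with the mouse number at the foot of the panel, and bars are the mean ± SD of 3 mice. The genotypes overlap in every panel except that of Mef2c, where the Tarsl2-/- mice sit between 212.5 and 235.8 CPM and the Tarsl2+/+ mice between 146.9 and 187.9.

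Mef2c, a transcription factor that acts beside the myogenic factors on genes of the contractile apparatus and is also made in endothelial cells and other cell types, was higher in each Tarsl2-/- mouse than in each Tarsl2+/+ mouse. Its counts were 2952, 3542 and 2802 for the Tarsl2+/+ mice 583, 584 and 595, which is 172.4, 187.9 and 146.9 CPM after scaling each library by TMM (a trimmed mean of log ratios). The Tarsl2-/- mice 588, 589 and 591 had 3899, 3410 and 4858 counts, or 217.1, 212.5 and 235.8 CPM. The lowest Tarsl2-/- mouse thus lay above the highest Tarsl2+/+ mouse, and the Tarsl2-/- mice lay closer to each other than the Tarsl2+/+ mice did. The means were 169.1 ± 20.7 CPM (SD, n = 3) and 221.8 ± 12.4 CPM (SD, n = 3), a ratio of 1.31. The log2 fold change was 0.392 with a standard error of 0.104 and a 95% interval from 0.164 to 0.62 (adjusted p = 0.073, edgeR), and the exact two-sided permutation test gave p = 0.1, the smallest that 3 mice against 3 allow. Of all genes tested, 12.6% lay higher in every Tarsl2-/- mouse in the same way. Mef2c passed the threshold without Tarsl2+/+ mouse 584 (log2 fold change 0.476, adjusted p = 0.0342), with DESeq2 (0.394, adjusted p = 0.0112) and when the filter on low counts was dropped (0.388, adjusted p = 0.00784). Over all genes, these fits called 625 of 15394, 670 of 15271 and 1437 of 25553, against 342 of 15075. Mef2c did not pass with limma-voom (adjusted p = 0.0677), RLE scaling (0.0741), upper quartile scaling (0.0847) or 10 counts required in each library (0.0714). Leaving out any other mouse gave adjusted p-values from 0.124 to 0.212 (edgeR). Genes of skeletal muscle identity, summed, also lay higher in the Tarsl2-/- mice (35551 to 39135 CPM) than in the Tarsl2+/+ mice (30861 to 32366 CPM). The 5 endothelial genes summed to 92.7 to 117 CPM in the Tarsl2-/- mice against 115.4 to 141 CPM, with Cdh5 lower past the threshold (log2 fold change -0.64, adjusted p = 0.00929, edgeR, and 0.0508 without mouse 583). The endothelial sums of the genotypes overlapped. Fibro-adipogenic genes (739.2 to 909.7 against 985.9 to 1012.5 CPM), tendon genes (156 to 192.8 against 195 to 253.8 CPM) and red cell genes (4160.8 to 4529.4 against 4739.8 to 10375.5 CPM) summed lower in each Tarsl2-/- mouse than in each Tarsl2+/+ mouse. No gene of these last 3 lists passed. The part of all these lists in the Mef2c value was not tested.

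Mef2c (ENSMUSG00000005583) spans chr13:83504034-83667080 on the plus strand of GRCm38, with 31 annotated transcripts in GENCODE vM21. The count table gives 1 value for the gene, so that its starts are not told apart. RefSeq gives windows for 3 of these starts, and the 250 bases before each are printed here because they show what separate starts lie behind the 1 regulator whose genotypes did not overlap. Capitals mark the E-box, CANNTG (N is any base), the motif that the myogenic factors bind, which reads as the same pattern on both strands.
Mef2c start a, chr13:83503784-83504033, plus strand: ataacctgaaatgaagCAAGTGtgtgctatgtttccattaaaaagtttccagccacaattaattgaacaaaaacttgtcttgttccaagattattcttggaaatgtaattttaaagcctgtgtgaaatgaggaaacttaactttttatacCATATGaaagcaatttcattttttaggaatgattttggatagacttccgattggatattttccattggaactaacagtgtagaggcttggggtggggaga
Mef2c start b, chr13:83523406-83523655, plus strand: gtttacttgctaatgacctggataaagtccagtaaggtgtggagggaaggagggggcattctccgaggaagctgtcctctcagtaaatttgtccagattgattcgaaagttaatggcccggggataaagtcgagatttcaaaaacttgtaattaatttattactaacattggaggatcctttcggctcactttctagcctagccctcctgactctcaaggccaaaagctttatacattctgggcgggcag
Mef2c start c, chr13:83573357-83573606, plus strand: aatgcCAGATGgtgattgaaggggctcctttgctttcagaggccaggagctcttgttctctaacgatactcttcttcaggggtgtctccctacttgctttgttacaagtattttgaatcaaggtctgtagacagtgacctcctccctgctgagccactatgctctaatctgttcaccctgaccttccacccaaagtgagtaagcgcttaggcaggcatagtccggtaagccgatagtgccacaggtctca
Window a holds 2 E-boxes, one reading CAAGTG and the other CATATG, window b none and window c 1, reading CAGATG. An E-box of any kind stood in 66.2% of the 32851 RefSeq windows of this length, so that having one sets no window apart, and the windows of the 10 regulators held one in 5 of 8. The forms CAGCTG and CACCTG stood in 13% and 17.2% of all windows and in none of those 8. RefSeq windows on GRCm38.p6 were matched for 6 of the 10 genes (Pax7, Cdh15, Myf5, Myog, Mef2c and Mstn).

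The satellite cell genes gave no common direction. Pax7, the paired-box factor that defines these cells, was a low-count gene with 54, 67 and 46 counts for the Tarsl2+/+ mice 583, 584 and 595 and 40, 28 and 63 for the Tarsl2-/- mice 588, 589 and 591. In CPM these were 3.15, 3.55 and 2.41 against 2.23, 1.74 and 3.06. Mice 588 and 589 lay below all Tarsl2+/+ mice, and mouse 591 lay among them. The log2 fold change was -0.36 with a standard error of 0.258 (adjusted p = 0.478, edgeR), and its wide 95% interval, from -0.926 to 0.206, takes in 0. Cdh15, the M-cadherin that holds satellite cells to the fibre and is also found in fusing myoblasts, was at 8.76, 9.02 and 9.28 CPM in the Tarsl2+/+ mice and at 9.86, 9.1 and 11.9 CPM in the Tarsl2-/- mice. Here 588 and 591 lay above all Tarsl2+/+ mice and 589 among them. Its log2 fold change was 0.195 with a 95% interval from -0.096 to 0.486 (adjusted p = 0.45, edgeR). The ratio of Cdh15 to Pax7 counts was 2.78, 2.54 and 3.85 in the Tarsl2+/+ mice and 4.42, 5.21 and 3.9 in the Tarsl2-/- mice, which do not overlap but lie close at 3.85 and 3.9. Such ratios within a library do not depend on its scaling, and since 8 of them were computed with the values of the genes known, they are given as a description.

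The 2 myogenic factors of commitment lay close to equal. Myod1, the factor that can turn other cell types into muscle, was at 17.3, 15.1 and 17.6 CPM in the Tarsl2+/+ mice and at 17.6, 17 and 18 CPM in the Tarsl2-/- mice. It was the steadiest of the 10, with a ratio of 1.19 between the highest and the lowest of the 6 mice. The log2 fold change of Myod1 was 0.074 with a 95% interval from -0.148 to 0.296 (adjusted p = 0.735, edgeR). Myf5, the first myogenic factor to appear in the embryo, was at 3.39, 4.51 and 3.72 CPM against 4.9, 3.3 and 4.56 CPM, with mouse 589 the lowest and 588 the highest of all. Its log2 fold change was 0.139 with a 95% interval from -0.308 to 0.586 (adjusted p = 0.756, edgeR).

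Myf6 and Myf5 are neighbours on chromosome 10, both on the minus strand and 6718 bases apart (Myf5 at chr10:107482908-107486134 and Myf6 at chr10:107492853-107494737, GRCm38). Myf6, also called MRF4, was by far the higher of the pair. Its counts were 2993, 2509 and 2910 for Tarsl2+/+ and 2530, 1435 and 2400 for Tarsl2-/- muscle, or 174.8, 133.1 and 152.6 CPM against 140.9, 89.4 and 116.5 CPM. Mice 589 and 591 lay below all Tarsl2+/+ mice, while 588 lay above Tarsl2+/+ mouse 584. The means were 153.5 ± 20.9 and 115.6 ± 25.8 CPM (SD, n = 3 each), a ratio of 0.754. For Myf6 the log2 fold change was -0.408 with a standard error of 0.152 (adjusted p = 0.168, edgeR). Without mouse 589 it was -0.253 (adjusted p = 0.409). That mouse also had the highest sums of adipocyte genes (1002.9 CPM, against 336.9 to 577.2 in the other mice), Schwann cell genes (105.7 CPM, against 20.9 to 59.7) and slow fibre genes (2277.3 CPM, against 1077.8 to 1859.2), whose part in its low Myf6 was not tested.

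Myog, which starts terminal differentiation, was at 50, 52.8 and 39.2 CPM in the Tarsl2+/+ mice and at 42, 34.8 and 58.5 CPM in the Tarsl2-/- mice. The Tarsl2-/- mice held both the lowest and the highest value of all 6. For Myog the log2 fold change was -0.067 with a 95% interval from -0.442 to 0.308 (adjusted p = 0.875, edgeR), and its sign turned to 0.021 without mouse 584 and to 0.089 without mouse 589. The Myog window is printed because this gene is a textbook case of control through E-boxes close to the start. Capitals again mark CANNTG, here at 138 and 12 bases before the RefSeq start at chr1:134290004. The GENCODE model of Myog starts earlier, at chr1:134289989, so that the nearer of these E-boxes lies within it.
Myog, chr1:134289754-134290003, plus strand: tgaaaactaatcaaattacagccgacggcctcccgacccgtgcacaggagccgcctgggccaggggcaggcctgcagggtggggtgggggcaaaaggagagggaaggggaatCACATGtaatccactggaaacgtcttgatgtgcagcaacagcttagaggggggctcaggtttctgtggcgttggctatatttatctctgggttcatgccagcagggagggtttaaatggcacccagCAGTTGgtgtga
The study's own primers for Myog read a different part of the gene, within the coding part of its exon 1. They bracket 61 bases at positions 410 to 470 of the transcript Myog-201, with the primer sites in capitals.
Myog amplicon, chr1:134290398-134290458, plus strand: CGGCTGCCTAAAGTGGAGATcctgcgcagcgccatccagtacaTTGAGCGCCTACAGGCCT
Each primer matched the annotated transcripts of Myog once.

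The RNAs of the fusion proteins spread differently between mice, and neither was the steadier in both genotypes. For Mymk the highest and lowest values had a ratio of 1.52 in the Tarsl2+/+ and 1.45 in the Tarsl2-/- mice. Mymk (myomaker), which readies the membranes of myoblasts for joining, was at 5.2, 7.43 and 4.88 CPM in the Tarsl2+/+ mice and at 3.79, 3.86 and 5.49 CPM in the Tarsl2-/- mice. Mice 588 and 589 lay below all Tarsl2+/+ mice and 591 did not. Its difference on the log2 scale was -0.407 with a 95% interval from -0.878 to 0.065 (adjusted p = 0.326, edgeR), and it was -0.192 without mouse 584 and -0.612 without mouse 591. Mymx (myomixer or minion), the short protein that completes fusion, was at 2.98, 3.13 and 3.09 CPM in the Tarsl2+/+ mice, where its highest and lowest values had a ratio of 1.05. In the Tarsl2-/- mice it was at 3.34, 2.12 and 4.76 CPM, a ratio of 2.25, with 589 the lowest and 591 the highest of all 6 mice. These rest on 34 to 98 counts, too few to read steadiness from a ratio of 1.05. The log2 fold change of Mymx was 0.166 with a 95% interval from -0.416 to 0.749 (adjusted p = 0.781, edgeR), and without mouse 591 it was -0.164.

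Mstn, the growth inhibitor, was counted 1317, 1048 and 1351 times in Tarsl2+/+ and 1145, 753 and 1013 times in Tarsl2-/- muscle, or 76.9, 55.6 and 70.8 CPM against 63.8, 46.9 and 49.2 CPM. Mice 589 and 591 were the lowest of all, and 588 lay above Tarsl2+/+ mouse 584, the order already seen for Myf6. The means were 67.8 ± 11 and 53.3 ± 9.14 CPM (SD, n = 3 each), a ratio of 0.786. For Mstn the log2 fold change was -0.347 with a standard error of 0.14 and a 95% interval from -0.653 to -0.04 (adjusted p = 0.198, edgeR). Over these 6 mice the proportion of Myf6 to Mstn varied less than either gene did, given as a description since the pair was picked with the values known. The ratio of their counts was 2.27, 2.39 and 2.15 in the Tarsl2+/+ mice and 2.21, 1.91 and 2.37 in the Tarsl2-/- mice, although Myf6 itself spanned a ratio of 1.95 and Mstn one of 1.64 over the 6 mice. The window before Mstn is shown because it held the most E-boxes of those matched, 4 of them in capitals, at 229, 174, 52 and 19 bases before the start.
Mstn, chr1:53061390-53061639, plus strand: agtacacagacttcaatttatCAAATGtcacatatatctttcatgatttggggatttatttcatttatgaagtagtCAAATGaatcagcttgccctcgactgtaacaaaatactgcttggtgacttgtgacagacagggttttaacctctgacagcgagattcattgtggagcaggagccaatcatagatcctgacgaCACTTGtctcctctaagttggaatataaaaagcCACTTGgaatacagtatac
The upper pair of these reads CAAATG and the lower pair CACTTG.

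**Figure D2:**
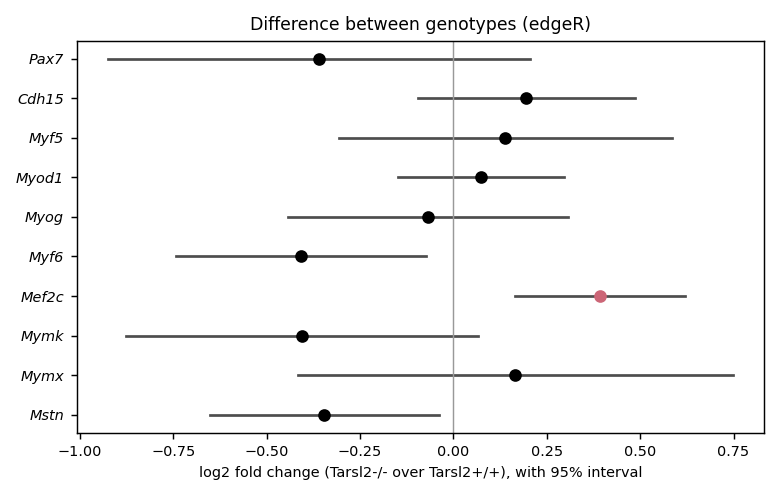
Log2 fold change (Tarsl2-/- over Tarsl2+/+) of each regulator from edgeR, as a point with its 95% interval as a line. The intervals of Mef2c (red, genotypes not overlapping), Myf6 and Mstn leave out 0 before adjustment over all genes, and those of the other regulators take it in.

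Since Mef2c lay higher and Myf6 lower in the Tarsl2-/- mice, their balance differed more than either gene did. The ratio of Mef2c to Myf6 counts was 0.986, 1.41 and 0.963 in the Tarsl2+/+ mice and 1.54, 2.38 and 2.02 in the Tarsl2-/- mice. Every Tarsl2-/- mouse thus had more Mef2c reads than Myf6 reads by a wider margin than any Tarsl2+/+ mouse. The mean ratios were 1.12 and 1.98, and the log2 ratio differed by 0.822, given as a description since the pair was picked for its opposite signs. Of the other ratios, Myog to Myod1 ran from 2.05 to 3.49 over the 6 mice and Myf5 to Myod1 from 0.194 to 0.298, with the genotypes overlapping in both.

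Per length of the gene model, the regulators ran in this muscle from the factor of mature fibres down to the stem cell factor. Myf6 led with a mean of 106.5 CPM per kilobase over the 6 mice (70.8 to 138.4). Myog followed at 30.9 (23.3 to 39.1) and Mstn at 22.4 (17.3 to 28.4), and these neighbours overlapped. Mef2c at 12.4 (9.35 to 15) and Myod1 at 9.18 (8.12 to 9.65) also overlapped, and the length of 15715 bases that the table gives for Mef2c covers the exons of many transcripts, which lowers its value on this scale. Mymk at 3.38, Mymx at 3.15 and Cdh15 at 2.97 CPM per kilobase could not be ordered, since their ranges overlapped and their order changed between mice. Myf5 at 1.95 (1.59 to 2.35) lay below the ranges of Cdh15 and Mymk. Its range overlapped that of Mymx (2.06 to 4.63), although within each mouse Myf5 lay below Mymx. Pax7 at 0.459 (0.298 to 0.607) lay below all.

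**Figure D3:**
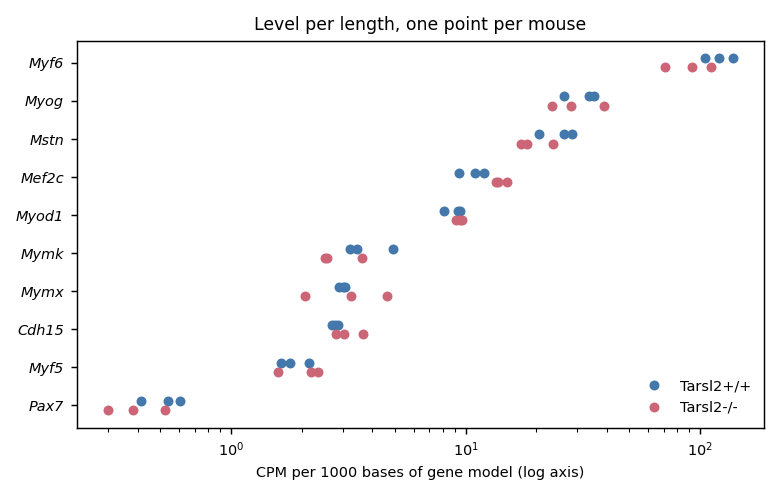
CPM per kilobase of gene model (horizontal, log axis) for each regulator in each mouse, in order of the mean. Blue points are Tarsl2+/+ and red points Tarsl2-/- mice. Myf6 lies between 70.8 and 138.4 and Pax7 between 0.298 and 0.607.

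The mice of one genotype differed from each other over several regulators at once. The sample title of mouse 589 begins with KOT1, where those of the other Tarsl2-/- mice begin with KO1, a difference that is not explained in the sources used here. Mouse 589 had the lowest level of 6 of the 10 regulators and the highest of none, and mouse 591, of the same genotype, had the highest of 5 and the lowest of none. Between them lay the whole range of Myog, Mymx and, for the Tarsl2-/- mice, Pax7. Mouse 589 had the highest sums of adipocyte and Schwann cell genes given above, and mouse 591 had the most counts in all (20123767), and the part of these in the spread was not tested. Among the Tarsl2-/- mice Mef2c had the same order, with 589 the lowest and 591 the highest, but all of them lay above every Tarsl2+/+ mouse. The genes most like Mef2c over the 6 libraries, by Pearson's r of log2 CPM among tested genes whose mean log2 CPM was 1 or more, included Arl6ip4 (r = 0.995) and Mrpl9 (r = 0.991). Each is among the highest of many correlations over only 6 points that share their libraries, and is a description.

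**Figure D4:**
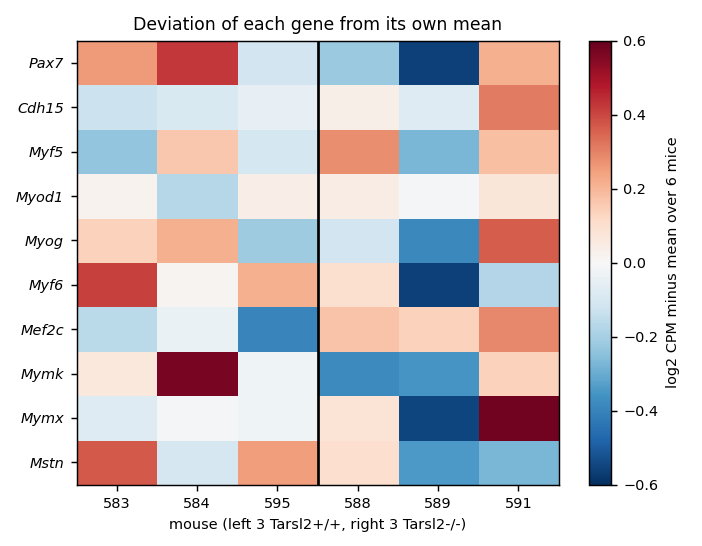
Log2 CPM of each regulator in each mouse minus its mean over the 6 mice, from blue (below the mean) to red (above). The column of mouse 589 is mostly blue and that of mouse 591 mostly red apart from Myf6 and Mstn, while the Mef2c row is blue in the 3 Tarsl2+/+ mice and red in the 3 Tarsl2-/- mice.

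The genes around these regulators were read from lists of named genes. Of 23 further satellite cell and niche genes, 21 were tested and none passed, with a median log2 fold change of -0.03 against 0.0027 for all genes. The smallest p belonged to the syndecans that mark satellite cells. Sdc4 was at 27.2, 23.1 and 25.3 CPM in the Tarsl2+/+ mice and at 29.5, 33.8 and 31.8 CPM in the Tarsl2-/- mice (log2 fold change 0.331, adjusted p = 0.0962, edgeR). Its genotypes did not overlap, which held for 2 of the 21 genes tested in this list and for 24.6% of all genes tested. Sdc3 ran the other way, at 14.1, 15.8 and 12.8 against 9.47, 10.9 and 13.1 CPM (log2 fold change -0.351, adjusted p = 0.191). Pairs of the same family thus gave opposite signs, neither of which passed.

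Among 25 partners and regulators of the myogenic factors, 1 passed and rose, or 4% of those tested, where 0.896% of all genes tested rose, and the median was 0.09. This was Tead4, a DNA-binding partner of the YAP and TAZ coactivators that is known in differentiating myoblasts. Its counts were only 17, 15 and 12 for Tarsl2+/+ and 32, 43 and 51 for Tarsl2-/- muscle, or 0.993, 0.796 and 0.629 CPM against 1.78, 2.68 and 2.48 CPM. All Tarsl2-/- mice lay above all Tarsl2+/+ mice, as they did for 12.6% of all genes tested, and the Tead4 counts were low throughout. On the log2 scale Tead4 rose by 1.52 with a standard error of 0.298 (adjusted p = 0.0262, edgeR). The call was lost without mouse 583, 595, 589 or 591, at adjusted p-values of 0.0718, 0.105, 0.101 and 0.0922, with the log2 fold change between 1.37 and 1.68.

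None of 20 tested genes of myoblast fusion passed, of 24 listed, with a median of -0.01. Myof (myoferlin), a membrane repair and fusion protein, was at 19.9, 20.3 and 26.6 against 16.5, 14.9 and 16.8 CPM (log2 fold change -0.47, adjusted p = 0.0765, edgeR). Dock1, an activator of Rac in fusing cells, was at 17.6, 14 and 16.3 against 11.9, 13 and 12.2 CPM (log2 fold change -0.368, adjusted p = 0.113). Both lay lower in each Tarsl2-/- mouse than in each Tarsl2+/+ mouse, as 11.9% of all genes tested did. Nphs1 had no count in any library.

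Of 25 genes of myostatin and activin signalling, 23 were tested and none passed, with a median of -0.04. Bmp1, a protease of the family that frees myostatin from its propeptide, was at 84.4, 76.5 and 84.2 against 60.4, 61.2 and 75 CPM (log2 fold change -0.317, adjusted p = 0.118, edgeR). Furin, the protease that first cuts promyostatin, was at 18.2, 18.3 and 14 against 19.5, 22.4 and 22.6 CPM (log2 fold change 0.356, adjusted p = 0.141). The genotypes did not overlap for either protease. That held for 6 of the 23 tested genes of this list, and for 24.6% of all genes tested.

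Of 15 genes of developing, regenerating or denervated muscle, 13 were tested and none passed, and the median was 0. Myl4, the embryonic and atrial myosin light chain, came nearest, at 10.6, 7.16 and 10.1 against 12.1, 15.2 and 17.1 CPM (log2 fold change 0.677, adjusted p = 0.063, edgeR). Gadd45a, which is induced by denervation and stress, was at 49.3, 44.7 and 44 against 61, 50 and 59.8 CPM (log2 fold change 0.309, adjusted p = 0.118). Of the 8 proliferation genes none passed, with a median of -0.25 and 7 of the 8 lower in the mean. Bub1, a checkpoint kinase of mitosis, was at 2.98, 2.49 and 2.78 against 2, 1.31 and 2.33 CPM (log2 fold change -0.531, adjusted p = 0.274), and for Ccnb1 (cyclin B1) the log2 fold change was -0.568 (adjusted p = 0.378). Without mouse 589 these were -0.336 and -0.286, and without mouse 591 they were -0.722 and -1.097.

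Lists of mature fibre genes were read beside the regulators, without a test between them. Of 10 genes of skeletal muscle identity 4 rose in Tarsl2-/- muscle, or 40%, where 0.896% of all genes tested rose, and the median log2 fold change was 0.4. Cacna1s, the voltage sensor of the fibre's calcium release, was at 77, 90.4 and 75.6 CPM in the Tarsl2+/+ mice and at 147.7, 156.4 and 178.4 CPM in the Tarsl2-/- mice (log2 fold change 0.989, adjusted p = 0.0011, edgeR). Des (desmin) rose by 0.5, Ckm (muscle creatine kinase) by 0.49 and Ryr1 (the calcium release channel) by 0.418 on the log2 scale (adjusted p = 0.0197, 0.0433 and 0.0403, edgeR). Leaving out 1 mouse ended the call for Ryr1 whichever mouse it was (adjusted p 0.053 to 0.15), for Ckm with any mouse but 584 (up to 0.142) and for Des with 583, 588, 589 or 591 (up to 0.117). Of 9 fast fibre genes tested, Actn3 (log2 fold change 0.693, adjusted p = 0.00807, edgeR, and 0.0568 without mouse 583) and Myh1 (0.594, adjusted p = 0.0151, and 0.0775 or 0.0606 without mouse 583 or 589) rose. Pvalb, which buffers calcium in fast fibres, did not pass (log2 fold change -0.227, adjusted p = 0.348). It lay lower in each Tarsl2-/- mouse than in each Tarsl2+/+ mouse, as 11.9% of all genes tested did. None of 10 slow fibre genes passed. The cell type genes named here were picked after their values were seen. Of 5 macrophage genes 3 fell (Adgre1, Csf1r and C1qa, by edgeR, where 1.37% of all genes tested fell), with the list summing to 376.7 to 442 CPM in the Tarsl2+/+ mice and 253.4 to 308.4 CPM in the Tarsl2-/- mice. Leaving out mouse 583, 588 or 589 ended all 3 calls, 595 those of Adgre1 and C1qa, and 591 that of Adgre1 (adjusted p 0.0555 to 0.142). The part of these cells in the values of the regulators was not tested.

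**Figure D5:**
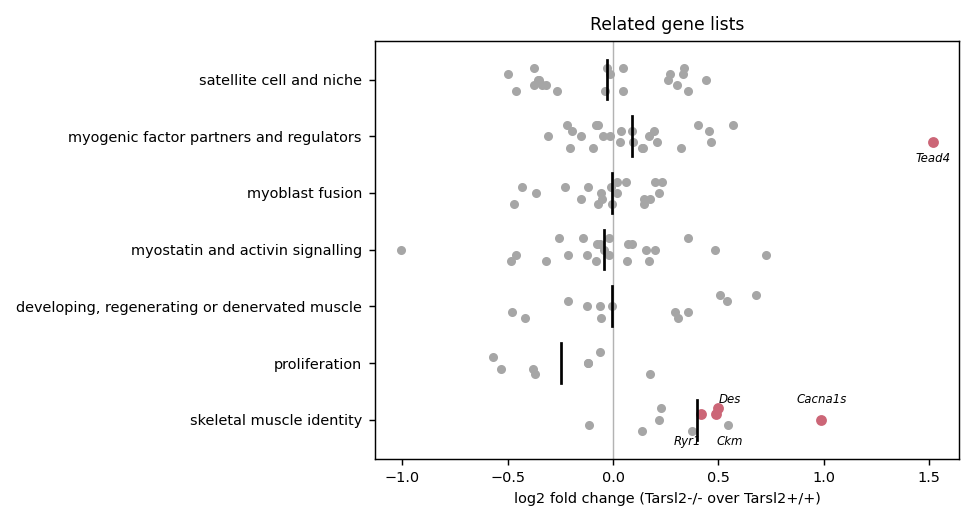
Log2 fold change (Tarsl2-/- over Tarsl2+/+, horizontal) of each tested gene in 6 related lists and in the list of skeletal muscle identity. Points are genes, red and named where the adjusted p was under 0.05, and black lines are list medians. The points of the 6 related lists lie on both sides of 0 with Tead4 as the 1 red point, and the median of muscle identity lies at 0.4.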

How the data were processed

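The authors extracted RNA from muscle, made stranded poly(A) libraries, sequenced them as paired ends and mapped the reads with HISAT2 to mm10 (GRCm38). They deposited whole-number counts per gene for each of the 6 mice, together with a gene length. The counting tool, annotation and strand setting are not given in the sources used here. The submitters' notes also name Bowtie 0.12.2, mm8 and a retinal extraction, but the coordinates of the 10 genes in the table are those of GENCODE vM21 on GRCm38. Unnamed regions (448) held 0.114% to 0.128% of the counts. They stayed in the library totals and went through the same filter and fit as all other genes.

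Mice were assigned to genotypes from the sample titles. Genes were filtered with filterByExpr (minimum count 10, minimum total 15), TMM-scaled, and compared in edgeR 4.0.16 (quasi-likelihood, genotype as the only factor, R 4.3.3), with Benjamini-Hochberg adjustment over 15075 genes and a threshold of 0.05. The fit was tested on simulated data. Standard errors were taken from each log2 fold change and its F statistic. An exact two-sided permutation test on log2 CPM was added for single genes. Libraries of one genotype differed by more than sampling noise (13 or more per gene by chi-square). At these depths 3 counts are 0.149 to 0.185 CPM before TMM scaling. P-values measure the spread between single libraries of separate mice.

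The 10 genes and all lists were chosen with earlier results of these data known. Named are the 10, Tarsl2, in each of the 6 lists of related genes those past the threshold or else the 2 with the smallest p, and the 3 genes most correlated with the regulator of smallest p. A result for a single gene among these is not reported here. The lists of partners and of cell type markers were written by hand. Only Cdh15 overlaps another gene model (Gm20388, same strand), with no shared exonic base. Alternatives were DESeq2 1.42.0, limma-voom (limma 3.58.1), RLE and upper quartile scaling, 2 other filters and leaving out each mouse. Promoter windows are from RefSeq (GRCm38.p6).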

Additional observations from a re-analysis of the deposited data

How the results depend on the processing

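No paired analysis was made, because no litter or other pairing of the mice is given in the sources used here. Over the 10 regulators, 112 of 120 refits kept the direction and the side of the threshold, 5 newly passed and 3 changed sign. The sign changes were Myog without mouse 584 (0.021) or 589 (0.089) and Mymx without mouse 591 (-0.164). The number of regulators called was 1 with DESeq2 (Mef2c), 3 with no filter beyond 1 count in any library (Mef2c, Myf6 at -0.411 and Mstn at -0.349), 0 to 1 when each mouse was left out in turn, and 0 otherwise. Across the same leave-out fits, the log2 fold change of Mef2c ran from 0.298 to 0.476, of Myog from -0.304 to 0.089, of Mymx from -0.164 to 0.407, of Myf6 from -0.574 to -0.253, of Mstn from -0.495 to -0.252, of Pax7 from -0.61 to -0.192, of Mymk from -0.612 to -0.192, of Cdh15 from 0.069 to 0.277, of Myf5 from 0.03 to 0.287, of Myod1 from 0.01 to 0.113 and of Tarsl2 from -3.915 to -3.693. Calls over all genes numbered 342 (135 higher, 207 lower), 670 with DESeq2 (300 and 370), 1437 with no filter (611 and 826) and 81 to 625 when a mouse was left out (31 to 242 higher, 50 to 383 lower), lowest without 583 and highest without 584. The cause was not tested. Calls in the lists moved with no filter to 3 (satellite cell and niche), 3 (partners), 1 (fusion), 3 (myostatin and activin) and 2 (developing muscle), with DESeq2 to 3 (partners) and 1 (developing muscle), and to 0 to 1 for the partners when a mouse was left out. Ckm also lost its call under upper quartile scaling (adjusted p = 0.0549) and when 10 counts were required in each library (adjusted p = 0.0518). Pax7, Myf5, Mymk and Mymx had between 28 and 140 counts in a library, which limits the size of difference these libraries can show.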

Other observations

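The labels leave unsaid which muscle the RNA came from, and the readings below do not name it. The 5 genes of limb position that were listed (Hoxc10, Hoxc11, Pitx1, Tbx4 and Tbx5) summed to between 47.8 and 58.5 CPM in every library. Most of this was Hoxc10 (32.4 to 41.6 CPM), with Pitx1 at 2.28 to 3.3, Tbx4 at 1.69 to 3.74 and Tbx5 at 1.22 to 2.06 CPM. Tnnc2, the fast troponin C, had 2 to 4 counts in each library, although the other fast fibre genes were high and the list summed to at least 112201 CPM, and the table's count for that gene should be read with care. The list of slow fibre genes had a higher mean in Tarsl2-/- muscle in 10 of 10 genes, with a median log2 fold change of 0.41, but none passed the threshold in edgeR's test (5 did at an unadjusted p under 0.05, where 19.8% of all genes tested did), and the summed levels of the genotypes overlapped (1077.8 to 1859.2 against 1529 to 2277.3 CPM).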
